A study of Mus musculus with 2 samples.

Results

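The genes described here are 10 genes of the PI3K, Akt and mTOR pathway, Pik3ca, Pik3cb, Pik3cd, Pik3cg, Pik3r1, Akt1, Akt2, Mtor, Rptor and Tsc1, of 34745 genes in the deposited tables. They were taken by gene symbol, and all 10 had reads at both time points. RNA of bone marrow LSKs, the lineage-negative cells that carry Sca1 and c-Kit and hold the hematopoietic stem and progenitor cells, was sequenced from C57BL/6 mice with the Scl/tTA and BCR/ABL (BA) transgenes. In this tet-off system a stem cell enhancer of Scl drives tTA, doxycycline keeps BA silent, and its withdrawal induces BA, the fusion kinase of chronic myeloid leukemia. The week-0 and week-3 groups carried the same transgenes and differed in the time since induction, 0 or 3 weeks. Each group was 1 library prepared from the pooled LSKs of 3 mice, so the spread between mice is unknown, no test between the time points was possible, and time cannot be told apart from library. Reads from the human BA transgene were not analysed here.

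Class I PI3K is a lipid kinase made of a catalytic and a regulatory subunit, and it makes PIP3 at the plasma membrane after receptors or BA signal. PIP3 recruits Akt, which inhibits the complex of Tsc1 and Tsc2 and thereby lets Rheb switch on mTOR complex 1 (mTORC1), in which Raptor, the product of Rptor, holds the substrates. In blood stem cells the pathway is known to set growth, protein synthesis and the balance between quiescence and cycling, and much of its control acts on proteins and their phosphorylation, which RNA levels do not measure.

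Most of the 10 genes were lower at week-3, by less than a factor of 2. Where 2 values of a gene stand together, that of week-0 comes first. The FPKM, a level per exon length scaled to the reads of the library, was higher at week-3 for 3 genes, Pik3ca, Pik3cd and Akt1, and lower for the other 7. Of all genes with reads in both libraries, 53.7% were higher at week-3. The log2 ratio of week-3 over week-0 ran from -0.94 for Rptor to 0.49 for Pik3ca, with a median of -0.37 over the 10 genes against 0.09 over the 15377 genes with reads in both libraries. None of the 10 genes reached a ratio of 2, which 14.2% of all genes did, and none fell to 0.5, which 16.2% of all genes did. Over the 8482 genes with 65 to 1403 reads in both libraries together, the range of the 10 genes, these shares were 9.11% and 11.7%. With limits of 1.5 and 0.67, 0 genes were above (28.1% of all genes) and 2 were below (25.7% of all genes), Rptor and Tsc1. TMM scaling shifted every log2 ratio by -0.11, which put the median of all genes at -0.02 and Rptor at -1.05, past a ratio of 0.5.

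The 95% intervals given below come from the share of a gene's reads found in the week-3 library (exact Clopper-Pearson), written as a log2 ratio. They cover counting error alone and hold nothing of the spread between mice. The cDNA was amplified, so its reads do not count separate molecules. The interval lay above 0 for 3 of the 10 genes and below 0 for 5, against 28.4% and 22.5% of all genes tested, and it held 0 for Pik3cb and Pik3cg. Deeply read genes have narrower intervals, and among the 8482 genes with as many reads over both libraries as the 10 genes (65 to 1403), these shares were 36.1% above 0 and 27.9% below 0.

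**Figure D1:**
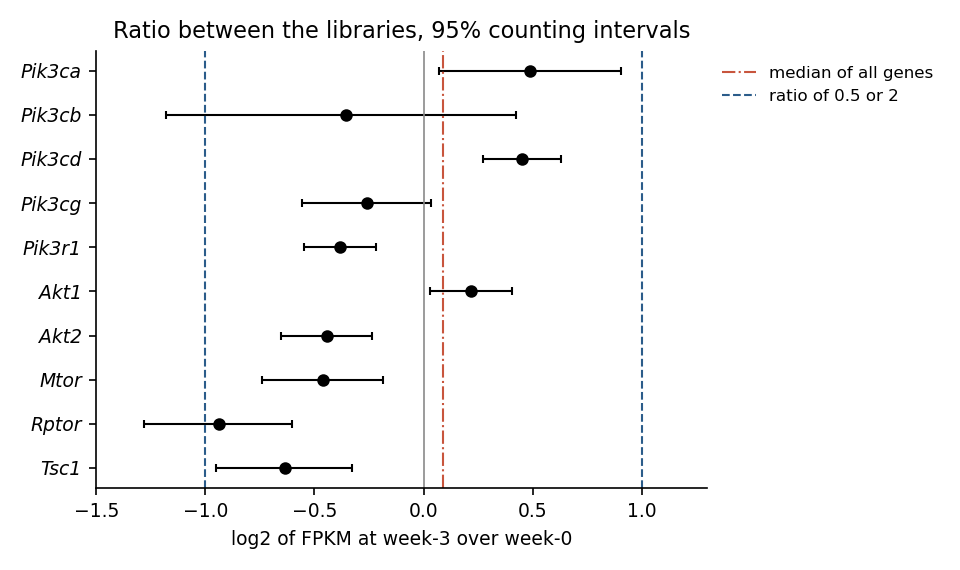
Log2 ratio of FPKM, week-3 over week-0 (horizontal axis) for each of the 10 genes, with 95% counting intervals, the median of all genes (dash-dotted line) and ratios of 0.5 and 2 (dashed lines). Rptor at -0.94 sits nearest to a dashed line, and the points of Pik3ca, Pik3cd and Akt1 lie right of 0.

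Gene reads numbered 6356164 (week-0) and 3886695 (week-3). Lists of marker genes differed between the libraries. The summed FPKM of 7 mast cell genes went from 61.6 to 3053, with all 7 higher at week-3, and that of 9 neutrophil genes from 2031 to 10974, with all 9 higher. Elane (FPKM 933 and 5143) and Ctsg (380 and 2810) were the largest parts of the neutrophil sum, while Ltf, for example, had 1.78 and 11.5. All 7 erythroid genes were lower, from a sum of 608 to 42.0, as were all 6 plasma cell genes, from 315 to 55.6. Jchain carried most of the plasma cell sum at week-0 (FPKM 221) and Xbp1 most of it at week-3 (47.8). The interval of Xbp1 held 0 (log2 ratio -0.09, interval -0.21 to 0.04). Among lymphoid genes, Cd3e and Cd8a had 0 reads at week-3, and the sums were 36.5 and 26.9 for B cell genes and 1.33 and 0.491 for T cell genes. Of the 6 B cell genes 5 were lower, with a sum of 13.0 and 0.489, and the total was carried by Cd79b (FPKM 23.5 and 26.4). Megakaryocyte genes summed to 47.6 and 49.2, with 2 of 5 higher. Monocyte and dendritic cell genes summed to 31.5 and 22.4, a sum carried by Cd14 (27.8 and 16.0), while 3 of the 5 were higher and the median log2 ratio was 0.71. The 10 immediate-early genes, which respond fast to handling and signalling, were all lower at week-3 and took 3.93% and 1.14% of all reads. The sorted identity was visible in both libraries, with reads on Kit and Ly6a, and 8 of 10 LSK and stem cell genes were lower at week-3 (sum of FPKM 383 and 220). The part of these shifts in the values of the 10 genes was not tested, and in bulk RNA fewer cells of a type and less RNA per cell cannot be told apart.

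All 10 genes are protein coding in GENCODE M21, with the coordinates of the deposited tables on GRCm38. For Mtor, Rptor and Tsc1, which were all lower at week-3, and for Pik3ca, which was higher, RefSeq gives a single promoter window each, so that these 4 sequences can be set side by side. Pik3cb also has a single window (GC content 78.0%, 3 GC boxes), which lies inside the deposited gene model and is not printed. The 250 bases before the annotated start (GRCm38.p6, transcribed strand, here the plus strand) are printed with capitals for any GC box (GGGCGG, the site of Sp1-type factors) or ETS site (CCGGAAG) on either strand.
Mtor, chr4:148448332-148448581: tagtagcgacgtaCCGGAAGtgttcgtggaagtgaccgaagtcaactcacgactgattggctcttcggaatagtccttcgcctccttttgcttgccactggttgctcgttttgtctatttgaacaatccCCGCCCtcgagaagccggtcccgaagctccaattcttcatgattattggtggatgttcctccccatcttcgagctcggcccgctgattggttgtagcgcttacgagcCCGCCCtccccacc
Rptor, chr11:119602655-119602904: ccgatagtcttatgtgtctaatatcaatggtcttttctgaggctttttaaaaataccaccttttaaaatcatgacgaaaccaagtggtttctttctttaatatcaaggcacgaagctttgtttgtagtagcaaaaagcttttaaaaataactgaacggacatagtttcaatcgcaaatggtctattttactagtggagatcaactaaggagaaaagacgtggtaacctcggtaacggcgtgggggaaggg
Tsc1, chr2:28640983-28641232: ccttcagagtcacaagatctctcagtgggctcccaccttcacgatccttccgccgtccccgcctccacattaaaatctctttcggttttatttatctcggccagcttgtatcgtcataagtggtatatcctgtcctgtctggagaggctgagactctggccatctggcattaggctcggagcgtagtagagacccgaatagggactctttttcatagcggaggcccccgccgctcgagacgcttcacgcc
Pik3ca, chr3:32396815-32397064: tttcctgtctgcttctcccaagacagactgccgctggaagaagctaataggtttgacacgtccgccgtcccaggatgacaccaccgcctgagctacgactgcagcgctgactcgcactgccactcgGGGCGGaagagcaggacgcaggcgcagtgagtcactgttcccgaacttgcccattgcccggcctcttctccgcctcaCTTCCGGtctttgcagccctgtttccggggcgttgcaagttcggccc
The windows differed in base composition. Rptor had the lowest GC content of the 4, 37.6%, against 54.4% for Mtor, 54.4% for Tsc1 and 61.6% for Pik3ca and a median of 52.4% over all 32851 windows of this length. The deposited gene model of Pik3ca starts 606 bases after the RefSeq start used here, that of Mtor starts 29 bases after it, that of Rptor starts at the same base and that of Tsc1 starts 5 bases before it.

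Mtor held 2 GC boxes and 1 ETS site, and Pik3ca held 1 of each. Neither motif was found in the windows of Rptor and Tsc1. A GC box was in 32.7% of all windows and an ETS site in 6.91%. Over the 18 windows that RefSeq gives for the 10 genes, 8 held a GC box, 2 an ETS site and 1 a TATA box (TATAAA, 12.4% of all windows), whereas an E-box (CACGTG, 6.02% of all windows) and a CRE (TGACGTCA, 1.55%) were in 0 of them. A match is a description of the letters, and the motifs of Mtor and Pik3ca, whose ratios lay on opposite sides of 0, were of the same kinds.

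Among the catalytic subunits, Pik3cd had the highest level at both time points. Pik3cd (ENSMUSG00000039936, chromosome 4, 149649168 to 149702571, minus strand) encodes p110 delta, the class IA subunit known for its high level in blood cells. Its FPKM was 7.02 in the week-0 library (562 reads) and 9.61 in the week-3 library (470 reads). The log2 ratio was 0.45 (95% interval 0.27 to 0.63), the only interval among the 10 genes that stayed above 0 under all 5 other scalings of the libraries.

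Pik3ca (ENSMUSG00000027665, chromosome 3, 32397671 to 32468486, plus strand) encodes p110 alpha, the subunit most often mutated in solid tumors and a main carrier of insulin signals. With 106 and 91 reads, its FPKM was 1.24 before and 1.73 after induction. Its log2 ratio of 0.49 was the highest of the 10, but with so few reads the interval ran from 0.07 to 0.91, and with TMM scaling it was -0.04 to 0.80 and held 0.

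Pik3cb (ENSMUSG00000032462, chromosome 9, 99036654 to 99140621, minus strand), which encodes p110 beta, had the fewest reads of the 10, 44 at week-0 and 21 at week-3. Its FPKM values were 0.792 and 0.618, and its log2 ratio of -0.36 had an interval from -1.18 to 0.42, so that neither a fall to 0.5 nor a small rise lay outside the counting error.

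Pik3cg (ENSMUSG00000020573, chromosome 12, 32173473 to 32208659, minus strand) encodes p110 gamma, the class IB subunit that G protein-coupled receptors activate in myeloid cells. Its FPKM was 4.72 from 286 reads before induction and 3.94 from 146 reads after it, with a log2 ratio of -0.26 (interval -0.56 to 0.03). With TMM scaling the interval was -0.67 to -0.08, below 0.

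The proportions of the catalytic genes differed between the libraries. Pik3cd took 51.0% of their summed FPKM at week-0 and 60.4% at week-3, while the share of Pik3cg went from 34.3% to 24.8%. Pik3ca held 8.97% and 10.9%, and Pik3cb 5.75% and 3.89%. Ratios between genes of 1 library do not depend on how the libraries are scaled. The reads of Pik3cd relative to Pik3cg changed by a factor of 1.64 (conditional exact 95% interval 1.29 to 2.09), and those of Pik3cg relative to Pik3ca by 0.595 (0.416 to 0.852). The factor was 0.974 for Pik3cd relative to Pik3ca (0.709 to 1.34) and 0.557 for Pik3cb relative to Pik3ca (0.292 to 1.04), intervals that hold 1. These were 4 of 8 ratios computed between the genes, with no correction for their number.

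**Figure D2:**
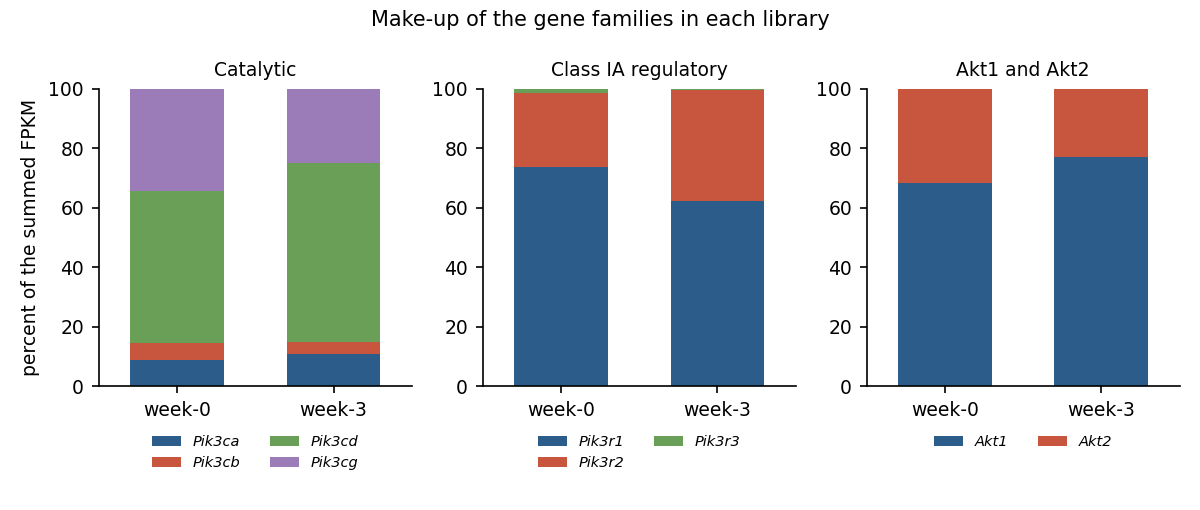
Percent of the summed FPKM (vertical axis) taken by each gene of the catalytic and class IA regulatory families and of the pair Akt1 and Akt2 in the week-0 and week-3 libraries, 1 library each. The Pik3cd segment grew from 51.0% to 60.4%, the Pik3r1 segment shrank from 73.7% to 62.3%, and the Akt1 segment grew from 68.2% to 77.3%.

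Pik3r1 (ENSMUSG00000041417, chromosome 13, 101680563 to 101768217, minus strand) encodes p85 alpha and its shorter forms, which stabilise the class IA catalytic subunits, hold back their activity and bring them to phosphorylated receptors. Its 955 reads at week-0 (FPKM 11.3) were the most of the 10 genes, against 448 (FPKM 8.67) after induction. The log2 ratio was -0.38 (interval -0.55 to -0.22). Relative to the summed reads of Pik3ca, Pik3cb and Pik3cd, its reads changed by a factor of 0.574 (0.489 to 0.673). On the FPKM scale the ratio of Pik3r1 to these 3 catalytic genes was 1.25 at week-0 and 0.725 at week-3. Per exonic base of GENCODE M21, a length described further on, the ratio was 0.881 and 0.505, under 1 in both libraries.

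The other class I regulatory genes differed in direction. Pik3r2, which encodes p85 beta, had 145 and 120 reads and FPKM values of 3.84 and 5.20, a log2 ratio of 0.44 (interval 0.08 to 0.80), and with TMM scaling its interval was -0.04 to 0.68 and held 0. Pik3r3 had 8 and 1 reads. The share of Pik3r1 in the summed FPKM of the class IA regulatory genes was 73.7% and then 62.3%, and that of Pik3r2 25.1% and 37.4%. The regulatory subunits of p110 gamma were higher at week-3, with 44 and 62 reads for Pik3r5 (log2 ratio 1.20, interval 0.62 to 1.80) and 17 and 47 for Pik3r6 (2.18, interval 1.35 to 3.07). Their summed FPKM was 1.58 at week-0 and 4.96 at week-3, while that of Pik3cg itself was 4.72 and 3.94. Pik3r4, the regulatory subunit of the class III kinase, had 266 and 89 reads and a log2 ratio of -0.87 (interval -1.23 to -0.52).

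Akt1 (ENSMUSG00000001729, chromosome 12, 112653821 to 112674884, minus strand), the Akt isoform tied mostly to growth and survival, had the highest level per length of the 10 genes in both libraries. That level was 16.1 in the week-0 library (560 reads) and 18.7 in the week-3 library (398 reads). The log2 ratio was 0.22 (interval 0.03 to 0.40), and with TMM scaling it was 0.10 (interval -0.08 to 0.29).

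Akt2 (ENSMUSG00000004056, chromosome 7, 27591552 to 27640826, plus strand), the isoform known for insulin-driven glucose uptake, went from 605 reads and an FPKM of 7.50 to 272 reads and an FPKM of 5.52. Its log2 ratio was -0.44 (interval -0.66 to -0.23). The reads of Akt2 relative to Akt1 changed by a factor of 0.633 (0.519 to 0.770). Akt1 took 68.2% of the summed FPKM of Akt1 and Akt2 at week-0 and 77.3% at week-3. The rest, 31.8% and 22.7%, was Akt2. The sum was an FPKM of 23.6 at week-0 and 24.3 at week-3, so that the proportions of the pair differed between the libraries more than its sum did.

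Mtor (ENSMUSG00000028991, chromosome 4, 148448611 to 148557683, plus strand) encodes the kinase of both mTOR complexes. Its reads numbered 358 and 159 and its FPKM was 4.89 and 3.55, which gives a log2 ratio of -0.46 (interval -0.74 to -0.19).

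Rptor (ENSMUSG00000025583, chromosome 11, 119602905 to 119899576, plus strand), the scaffold that defines mTORC1, had the lowest ratio of the 10. The week-0 library held 307 reads of it (FPKM 2.37), the week-3 library 98 (FPKM 1.23). The log2 ratio was -0.94 (interval -1.28 to -0.61), and 17.1% of all genes had a lower ratio. Relative to Mtor, its reads changed by a factor of 0.719 (0.529 to 0.974). Of its exonic bases, 84 (0.624%) are shared with the antisense gene Rptoros, which had 6 and 1 reads, and the way reads were counted with respect to strand is not given in the sources used here. No other of the 10 genes shares exonic bases with another gene in GENCODE M21.

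Tsc1 (ENSMUSG00000026812, chromosome 2, 28641228 to 28691167, plus strand) encodes hamartin, which stabilises the complex that holds mTORC1 back. From 310 reads (FPKM 2.81) it went to 122 (FPKM 1.81), a log2 ratio of -0.64 with an interval from -0.95 to -0.33. The kinase, its mTORC1 scaffold and its inhibitor were thus all lower at week-3. The factor for Tsc1 relative to Mtor was 0.886 (0.662 to 1.18), an interval that holds 1.

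The order of the levels was similar in both libraries. By FPKM at week-0 it was Akt1, Pik3r1, Akt2, Pik3cd, Mtor, Pik3cg, Tsc1, Rptor, Pik3ca and Pik3cb. The counting error did not separate Akt2 from Pik3cd or Mtor from Pik3cg. At week-3 the order was Akt1, Pik3cd, Pik3r1, Akt2, Pik3cg, Mtor, Tsc1, Pik3ca, Rptor and Pik3cb, and it did not separate Pik3cd from Pik3r1, Pik3cg from Mtor or Tsc1 from Pik3ca.

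**Figure D3:**
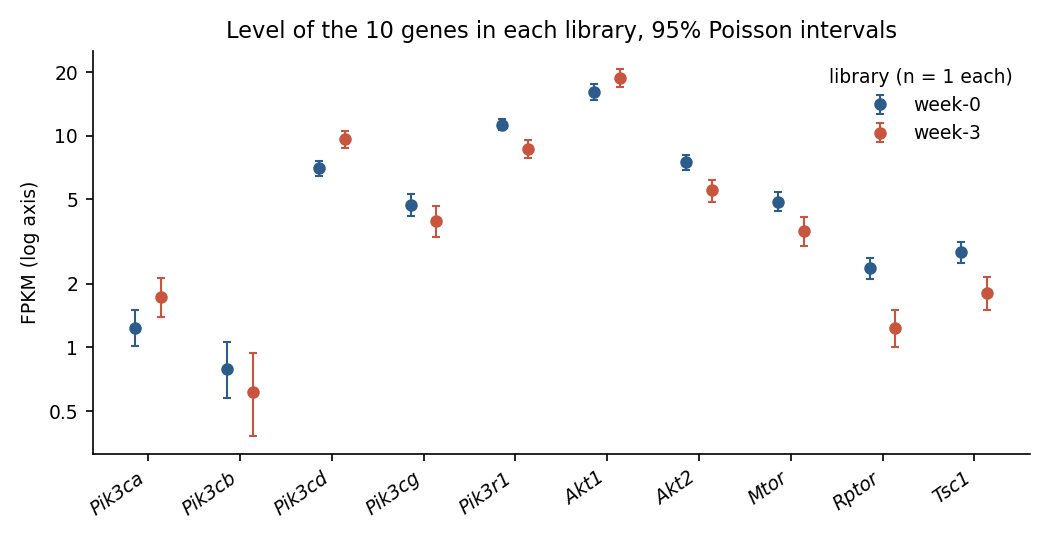
FPKM (log axis) of the 10 genes in the week-0 and week-3 libraries, with 95% Poisson intervals from the reads of each library. Akt1 is highest in both (16.1 and 18.7) and Pik3cb lowest (0.792 and 0.618).

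The level of a gene depends on the length it is divided by. The deposited FPKM used an exon model length from 5465 bases for Akt1 to 20417 for Rptor. Among 8461 genes with at least 20 reads at week-0 and the same coordinates in GENCODE M21, 7400 have exons that overlap, and for 87.7% of these the length matched the sum of all distinct exons to within 0.5%, a sum in which bases held by more than 1 exon variant count repeatedly. This was so for 9 of the 10 genes, with Pik3cg the exception. For Pik3cd this gave 12588 bases in place of 6259 exonic bases, and for Akt2 12683 in place of 7131. Per exonic base, Pik3cd took 63.5% and 71.3% of the catalytic sum, Pik3cg 24.0% and 16.4%, and Akt1 61.7% and 71.8% of the sum of Akt1 and Akt2. Pik3cd then ranked above Akt2 at week-0, and the ratios between the libraries were untouched, since each gene's length is the same in both.

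The genes with the longest exon models had lower ratios than the rest in these libraries. Groups by exonic bases were not made. Of 20 groups of genes by exon model length, the longest 2 (from 13184 bases up) had median log2 ratios of -0.10 and -0.17, and the group from 3695 to 4148 bases had 0.25. Pik3ca, Pik3r1, Rptor and Tsc1 lie in the longest 2 groups. Relative to the median of its own length group, the log2 ratio was -0.77 for Rptor, -0.46 for Tsc1, -0.48 for Mtor and 0.59 for Pik3ca, and the median over the 10 genes was -0.33. The part of length in the single values was not tested beyond this.

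**Figure D4:**
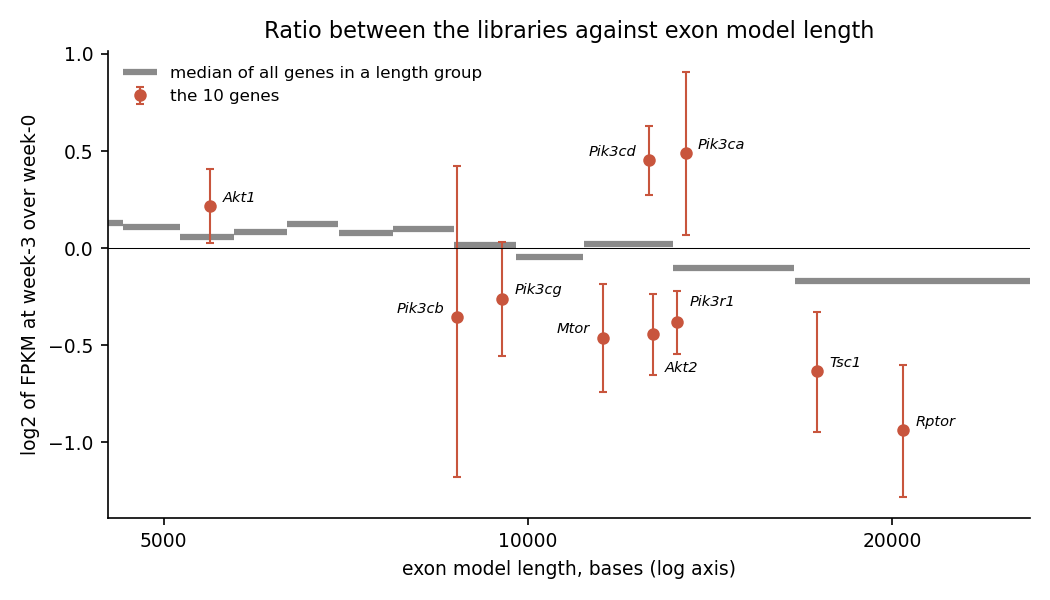
Log2 ratio of FPKM, week-3 over week-0, against exon model length in bases (log axis), for the 10 genes with 95% counting intervals and, as grey bars, for the median of all genes in each length group. Rptor and Tsc1 lie in the longest group, whose median is -0.17, and both lie below it.

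Another 109 genes of the pathway were listed by role, 104 of them with reads in both libraries. Of these, 6 had a ratio of at least 2 (5.77%, against 14.2% of all genes) and 20 a ratio of at most 0.5 (19.2%, against 16.2%), and their median log2 ratio was -0.14. Over the 12082 genes with at least 20 reads over both libraries, the shares were 10.6% and 14.9%. With TMM scaling the counts of pathway genes were 5 and 22. In the text that follows, the genes past these limits with at least 20 reads over both libraries are named, and others where a list has fewer than 2 such genes.

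Upstream of PI3K, the intervals of 2 adaptor genes, Pik3ap1 and Irs2, lay below 0. Of the 5 adaptor genes with reads in both libraries, 3 had a ratio of at most 0.5 and 0 a ratio of at least 2. Pik3ap1, which encodes the B cell adaptor BCAP, had 555 and 53 reads, a log2 ratio of -2.68 (interval -3.11 to -2.27). Irs2, an insulin receptor substrate, had 598 and 96 reads (-1.93, interval -2.26 to -1.62). Gab3 had a log2 ratio of -1.06 from 17 and 5 reads, with an interval of -2.85 to 0.44, and Irs1 had 0 reads in both libraries. The intervals of Gab1 (-0.32, from -1.13 to 0.44) and Gab2 (-0.36, from -0.77 to 0.05) also held 0.

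Of the other 8 PI3K subunits with reads in both libraries, 2 had a ratio of at least 2 (Pik3r5 and Pik3r6, above) and 1 at most 0.5, Pik3r3, which had 8 and 1 reads and is named because it is that single gene. Among the 7 lipid phosphatases and PI3K inhibitors, 2 had a ratio of at most 0.5. Inpp5d, which encodes SHIP1, the phosphatase that removes the 5-phosphate of PIP3 in blood cells, had 1562 and 324 reads and FPKM values of 19.8 and 6.71, a log2 ratio of -1.56 (interval -1.74 to -1.39). Its relative Inppl1 had 37 and 9 reads (-1.33, interval -2.57 to -0.25), and 1204 of its exonic bases (18.8%) are shared with the antisense gene Gm10602, which was not analysed here.

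**Figure D5:**
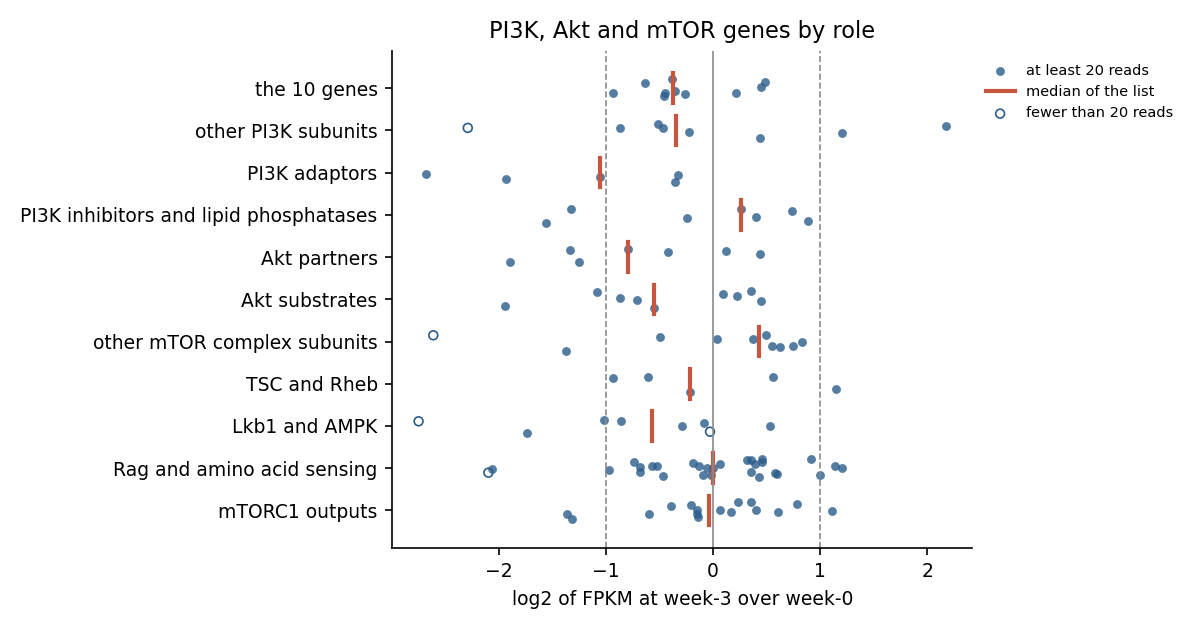
Log2 ratio of FPKM, week-3 over week-0 (horizontal axis) for the genes with reads in both libraries, by role, with open circles for genes with fewer than 20 reads over both and a vertical bar at the median of each list. The dashed lines mark ratios of 0.5 and 2. The adaptors have the lowest median, -1.06, which over 5 genes is the value of Gab3 (17 and 5 reads, interval -2.85 to 0.44).

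Around Akt, 3 of 7 partner genes had a ratio of at most 0.5 and 0 a ratio of at least 2. They were Trib3, a pseudokinase that binds Akt (67 and 11 reads, log2 ratio -1.90), Sgk1, a related kinase (325 and 79 reads, -1.33), and Phlpp1, a phosphatase that acts on Akt (66 and 17 reads, -1.25). Tcl1, a coactivator of Akt, had 0 reads in both. Of 9 Akt substrates, 2 had a ratio of at most 0.5, the transcription factors Foxo1 (126 and 20 reads, -1.95) and Foxo4 (104 and 30 reads, -1.08).

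The scaffolds of both mTOR complexes were lower at week-3. Rictor, which defines mTORC2, had 465 and 110 reads, a log2 ratio of -1.37 (interval -1.68 to -1.07), against -0.94 (-1.28 to -0.61) for Rptor, and the intervals overlap. Of 10 genes listed with the mTOR complexes beside Mtor and Rptor, 7 had a log2 ratio above 0 (53.7% of all genes), with a median of 0.43. The list includes the assembly factors Telo2, Tti1 and Tti2 (log2 ratios 0.55, 0.62 and 0.37). A ratio of at most 0.5 was found for 2 of the 10 genes, Rictor and Prr5l, the latter with 10 and 1 reads. Akt1s1, which encodes the mTORC1 inhibitor PRAS40, had 355 and 386 reads and a log2 ratio of 0.83 (interval 0.62 to 1.04), and it shares 89 exonic bases (2.90%) with Tbc1d17 on the opposite strand (377 and 253 reads).

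In the group of Tsc and Rheb, 1 of 5 genes reached a ratio of 2 and 0 were at or under 0.5. This was Tbc1d7, which encodes the third subunit of the Tsc complex, with 65 and 88 reads (1.15, interval 0.67 to 1.63). Tsc2, whose product is the GTPase-activating subunit, had 296 and 95 reads (-0.93, interval -1.28 to -0.59), against -0.64 for Tsc1, its partner, and -1.04 with TMM scaling, past a ratio of 0.5. Of its exonic bases, 693 (7.20%) are shared with Pkd1 on the opposite strand, which had 707 and 145 reads, and the part of shared reads in the value of Tsc2 was not tested. Ddit4l had 11 and 0 reads.

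Of the 8 genes of Lkb1 and AMPK, the kinases that restrain mTORC1 when energy is low, 3 had a ratio of at most 0.5 and 0 a ratio of at least 2. Prkab1 had 1250 and 229 reads (log2 ratio -1.74, interval -1.95 to -1.53), Prkab2 had 53 and 16 (-1.02), and Prkaa2, under the limit of 20 reads, had 11 and 1. Only 1 gene of the list was higher at week-3, Stk11, which encodes Lkb1 and is named for that reason. It had 271 and 240 reads (0.53, interval 0.28 to 0.79).

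The 29 genes of the Rag GTPases and amino acid sensing had a median log2 ratio of 0.00. A ratio of at least 2 was found for 2 of them, Lamtor3, a subunit of the lysosomal anchor of the Rag GTPases (161 and 227 reads, 1.21), and Mios, a subunit of GATOR2 (29 and 39 reads, 1.14). A ratio of at most 0.5 was found for Sesn2, a leucine sensor that stress induces (123 and 18 reads, -2.06), and for Rragd, with 7 and 1 reads.

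Among the 16 genes of mTORC1 outputs with reads in both libraries, 1 reached a ratio of 2 and 2 were at or under 0.5. Pdcd4, an inhibitor of translation that S6 kinase marks for degradation, had 1046 and 1380 reads (1.11, interval 0.99 to 1.23), and with TMM scaling its log2 ratio was 0.997, just under the limit. Eif4ebp2, a repressor of cap-dependent translation, had 388 and 92 reads (-1.37, interval -1.71 to -1.04), and Ulk1, the kinase that starts autophagy, had 865 and 212 (-1.32, interval -1.54 to -1.10). The median of this list was -0.04.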

How the data were processed

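Deposited tables of 2 libraries, week-0 and week-3, were joined by Ensembl gene identifier. The authors sorted LSKs, made cDNA with a SMARTer Ultra Low Input kit and, per the submitters' processing notes, mapped reads to mm10 with TopHat2 2.0.9. They deposited read counts per gene, whole numbers without normalization, and FPKM, which the authors scaled by exon length and total reads. The counting tool and annotation release are not given in the sources used here.

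Log2 ratios are of FPKM at week-3 over week-0, without pseudocount, for genes with reads in both libraries. With 1 library per group, no p-value was computed. Called means a ratio of at least 2 or at most 0.5. Intervals (95%) are exact and cover counting error; the depth was 6356164 and 3886695 reads. Ratios between genes have conditional exact intervals. The procedures were tested on simulated Poisson counts, the model that the intervals assume. That test cannot show how the intervals perform with amplified cDNA or with spread between mice.

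The members and lists were chosen with earlier results of these data known. All 10 members are named. Of each list, genes past the limits with at least 20 reads are named, and in any case the 2 largest absolute log2 ratios. Markers are named where they are at 0, carry a summed level or show the sorted identity. Results for some genes under this rule are not reported here, and the Akt shares are over Akt1 and Akt2.

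Alternatives were TMM and upper-quartile scaling (edgeR 4.0.16), median-of-ratios (DESeq2 1.42.0, R 4.3.3), totals without the 10 most read genes of either library, pseudocounts of 0.1 and 1, limits of 1.5 and 0.67, and at least 20 reads. Added after seeing the data were totals without marker genes, centring by 20 length groups, counts of pathway genes and intervals under each scaling and levels per exonic base. Analyses ran in Python 3.11.15 (scipy 1.17.1, pandas 2.3.3, numpy 2.4.6, matplotlib 3.10.9), with GENCODE M21 and RefSeq (GRCm38.p6) for annotation and promoters.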

Additional observations from a re-analysis of the deposited data

How the results depend on the processing

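The log2 ratio of each of the 10 genes kept its sign under 8 alternatives, and 79 of the 80 values stayed within the counting interval of the main value. The exception was Rptor at -0.59 on the log2(FPKM + 1) scale. A pseudocount cannot change a sign. Each scaling moved all 10 genes by the same shift, and the largest was -0.11, with TMM. That is smaller in size than the ratio nearest to 0, 0.22 for Akt1. It is also smaller than the distance from each main value to either end of its interval, so no scaling could move a value out of its interval. The kept signs and the values within the intervals under these alternatives are therefore no separate support for the ratios. With limits of 1.5 and 0.67, 2 genes were at or below the lower limit in place of 0. Under median-of-ratios or TMM scaling, 1 gene, Rptor, was at or below 0.5, and the number of intervals above 0 was 1 in place of 3, since those of Pik3ca and Akt1 then held 0. The median over the 10 genes ran from -0.28 with a pseudocount of 1 to -0.48 with TMM scaling. Only 1 library was made per time point, so no library could be left out. No paired analysis was possible because each group holds 1 library. The depth limits Pik3cb and Pik3ca most, with 21 and 91 reads at week-3.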

Other observations

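The deposited tables assign genes to KEGG terms, and these were counted after the data had been seen. The PI3K-Akt signaling pathway term held 337 genes, of which 237 had reads in both libraries. Of these, 14 (5.91%) had a ratio of at least 2 and 54 (22.8%) a ratio of at most 0.5, with a median log2 ratio of -0.29. The mTOR signaling pathway term held 58 genes, 54 with reads in both libraries, of which 3 (5.56%) had a ratio of at least 2 and 8 (14.8%) a ratio of at most 0.5, with a median of -0.12. Over all genes these shares were 14.2% and 16.2%, and over the 12082 genes with at least 20 reads over both libraries 10.6% and 14.9%. All 10 genes described above carry both terms.

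The mouse genes Bcr and Abl1, named like the parts of the transgene, both had lower levels at week-3. Bcr had 371 and 108 reads (log2 ratio -1.07), and Abl1 had 395 and 144 (-0.75).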
